A study of Mus musculus with 20 samples.

Results

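Ntsr1 and Ntsr2, the genes of the G protein-coupled neurotensin receptors, were 2 of 31130 genes in the deposited table of normalized counts, and their identifiers, ENSMUSG00000027568 and ENSMUSG00000020591, were taken from the comparison tables that pair identifiers with symbols. The pair was chosen because the receptors change in opposite directions with CHIR, so every difference between high and low CHIR is given here as a description with no test, and tests were run only within a CHIR condition. CHIR (CHIR99021) is an inhibitor of GSK3β, and blocking this kinase stabilizes β-catenin and so imitates a Wnt signal. Messenger RNA was sequenced from 20 libraries of primary mouse nephron progenitor cells (NPCs, the fetal kidney cells that form nephrons), all of genotype Cas9-eGFP, held for 48 h after transfection with sgRNAs and then kept for 24 h in CHIR, either low at 1.25 µM or high at 5 µM. In each CHIR condition there were 3 CTRL libraries (sgRNAs against GFP), 3 β-catenin KO libraries (Ctnnb1 sgRNAs), 2 α-catenin KO libraries (Ctnna1 sgRNAs) and 2 QCKO libraries (a mixture of Cdh2, Cdh3, Cdh4 and Cdh11 sgRNAs). All cells were sorted for an mCherry reporter given with the sgRNAs, which marks transfection and not editing, so each library is a mixture of alleles and may hold unedited cells. The control sgRNAs also cut DNA, in the eGFP transgene that all groups carry. Libraries of the same replicate number carry the same date in their titles, and the labels do not say what step was done on it. CTRL and β-catenin KO have replicates 1, 2 and 3, α-catenin KO has 1 and 3, and QCKO has 2 and 3. The labels do not say which animals went into a culture, so p-values measure the spread between these libraries.

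Neurotensin is a short peptide made by neurons and by endocrine cells of the gut. Ntsr1 is its high-affinity receptor and acts mainly through Gq proteins, which activate phospholipase C, release calcium from internal stores through inositol trisphosphate receptors and activate protein kinase C. Ntsr2 binds the peptide with lower affinity, also binds the antihistamine levocabastine, and is best known from the brain, where glia express it. Sortilin and the related receptor Sorl1 bind neurotensin without being G protein-coupled, and membrane peptidases such as neprilysin (Mme) cut the peptide. In human colonic adenomas the NTSR1 gene has been described as a target of β-catenin and its Tcf partners.

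Ntsr1 lies on chromosome 2 at 180499976 to 180544979 (GRCm38.p6, RefSeq), and no other annotated gene overlaps it. Ntsr2 lies on chromosome 12 at 16653443 to 16660236, where its first 461 bases overlap Lpin1, a phosphatidate phosphatase gene. The library kit does not mark strand, so reads from that overlap cannot be assigned by strand. Lpin1 had normalized counts of 939 to 1233 in the 7 low CHIR libraries without β-catenin KO, in which Ntsr2 had 0 to 0.893, and 1464 to 2847 in the 7 such high CHIR libraries, in which Ntsr2 had 453.6 to 675.5. The part of Lpin1 reads in the Ntsr2 values of high CHIR was not tested. The promoters are shown because the receptors respond to CHIR in opposite directions, and each is the 250 bases upstream of the start used by the RefSeq promoter table, on the plus strand. Capitals mark a match to CTTTGA or CTTTGT, the core that Lef and Tcf proteins bind, searched on both strands.
Ntsr1, chr2:180499726-180499975: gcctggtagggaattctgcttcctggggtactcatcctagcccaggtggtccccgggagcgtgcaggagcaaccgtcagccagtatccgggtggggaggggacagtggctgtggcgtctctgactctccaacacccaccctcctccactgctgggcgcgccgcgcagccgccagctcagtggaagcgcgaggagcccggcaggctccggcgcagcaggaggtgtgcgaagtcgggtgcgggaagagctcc
Ntsr2, chr12:16653220-16653469: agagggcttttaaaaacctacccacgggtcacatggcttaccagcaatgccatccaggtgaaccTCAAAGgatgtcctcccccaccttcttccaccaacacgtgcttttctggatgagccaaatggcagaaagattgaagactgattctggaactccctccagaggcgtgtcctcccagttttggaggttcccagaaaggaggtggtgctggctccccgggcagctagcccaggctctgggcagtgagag
The Ntsr2 window held 1 match, TCAAAG, which is CTTTGA read on the other strand, at 16653284 to 16653289, 186 bases before that start. The Ntsr1 window held none. Of 32851 promoter windows of this length, 27.6% held either motif, 13.8% CTTTGA and 16.5% CTTTGT, so a single match is common. The G and C content was 68.4% in the Ntsr1 window and 55.2% in the Ntsr2 window.

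Recovered read totals were 18124772 to 28472412 per library, with a median of 21449823. Ctnna1 had normalized counts of 3564 to 3790 in the 4 α-catenin KO libraries and of 5817 to 11092 in the other 16, and Ctnnb1 has no identifier in the tables used here. Of the QCKO targets, Cdh11 was lower in QCKO than in CTRL without overlap, at 1818 to 2519 against 3594 to 5112 in low CHIR and at 589 to 1005 against 1883 to 2092 in high CHIR. Cdh2, Cdh3 and Cdh4 in QCKO overlapped the range of CTRL in both CHIR conditions, so at the RNA level only Cdh11 of the 4 targets sets QCKO apart from CTRL. The β-catenin KO libraries differed among themselves in Wnt4, a gene that inducing NPCs switch on. In low CHIR, Wnt4 was 30.1, 830.6 and 634 in β-catenin KO replicates 1, 2 and 3 and 41.1 to 123 in the 7 other libraries, and Lef1 was 62.3, 659.7 and 532 against 58.1 to 81.7. In high CHIR, Wnt4 in β-catenin KO was 4.76%, 57.4% and 22.2% of the CTRL library of the same date. Six2, the transcription factor that keeps NPCs undifferentiated, was 798, 409 and 467 in the β-catenin KO libraries in high CHIR and 27.8 to 83.8 in the others. All 6 nephron progenitor markers with an identifier (of 8 listed) were detected, with summed counts of 12089 to 20716 in the 10 low CHIR libraries. The other lists had few members with an identifier, which were 4 of 9 for ureteric epithelium, 2 of 8 each for stroma and neuron, and 1 of 8 each for endothelium (Tek) and leukocyte (Laptm5).

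Values are normalized counts, that is read counts divided by a size factor for each library. They are not divided by gene length, so levels of the receptors are not compared with each other. Ntsr1 was a gene of low CHIR. In CTRL it had 249.9, 319.5 and 804 normalized counts in replicates 1, 2 and 3 (458 ± 302, SD, n = 3) in low CHIR and 0 in each of the 3 libraries in high CHIR. All CTRL libraries in low CHIR thus held Ntsr1 reads and none in high CHIR did. Set against a floor of 3 reads over the group, which is 0.970 normalized counts here, Ntsr1 was at least 461-fold lower in high CHIR. In α-catenin KO it was 252 and 681 in low CHIR and 2.58 and 1.01 (2 reads and 1 read) in high CHIR, a ratio of 276 with a 95% exact counting interval of 94.2 to 1340. In QCKO it was 649.8 and 1530 in low CHIR and 1.21 and 0 (1 read and none) in high CHIR, a ratio of 2024 with an interval of 363 to 79983. These intervals and the floor cover counting error only, since reads were pooled over libraries, and they leave out the spread between replicates. The reads carry no molecular identifiers, so the counts may include duplicates. In these adhesion knockouts, as in CTRL, Ntsr1 was near 0 in every high CHIR library. In bulk samples, fewer cells that express a gene and less RNA per cell cannot be told apart.

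Ntsr2 was a gene of high CHIR. In CTRL it had 0.893, 0 and 0 normalized counts in low CHIR (1 read in all) and 453.6, 636.6 and 675.5 in high CHIR (588.6 ± 118, SD, n = 3). The ratio was 1794 with a 95% exact counting interval of 322 to 70915. In α-catenin KO it went from 0 and 0.849 (1 read) to 641 and 593 in high CHIR, a ratio of 1438 with an interval of 258 to 56843. In QCKO it was 0 in both low CHIR libraries and 649.6 and 665.8 in high CHIR, at least 480.1-fold higher by the same floor. Over the 7 high CHIR libraries without β-catenin KO the coefficient of variation of Ntsr2 was 12.4%, from 453.6 to 675.5 with a median of 641. Over the 7 low CHIR libraries without β-catenin KO that of Ntsr1 was 70.5%, from 249.9 to 1530 with a median of 649.8. In CTRL, α-catenin KO and QCKO each receptor was thus near 0 in one CHIR condition and present in the other. In β-catenin KO, by contrast, Ntsr1 was 38.1 to 158 in high CHIR, and the coefficient of variation was 25.2% for Ntsr1 in low CHIR and 79.0% for Ntsr2 in high CHIR. With single libraries left out, the Ntsr1 bound in CTRL fell to 271-fold without high CHIR replicate 3 and to 290.2-fold without low CHIR replicate 3, and the Ntsr1 ratio ran from 149 to 464 in α-catenin KO. For Ntsr1 in QCKO it ran from 883 to 2903, and without high CHIR replicate 2, which held the only read, the bound was at least 380.2-fold. The Ntsr2 bound in QCKO fell to 227-fold without low CHIR replicate 2. Without the low CHIR library that held the only read, Ntsr2 was at least 366-fold higher in CTRL and at least 238-fold higher in α-catenin KO.

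**Figure D1:**
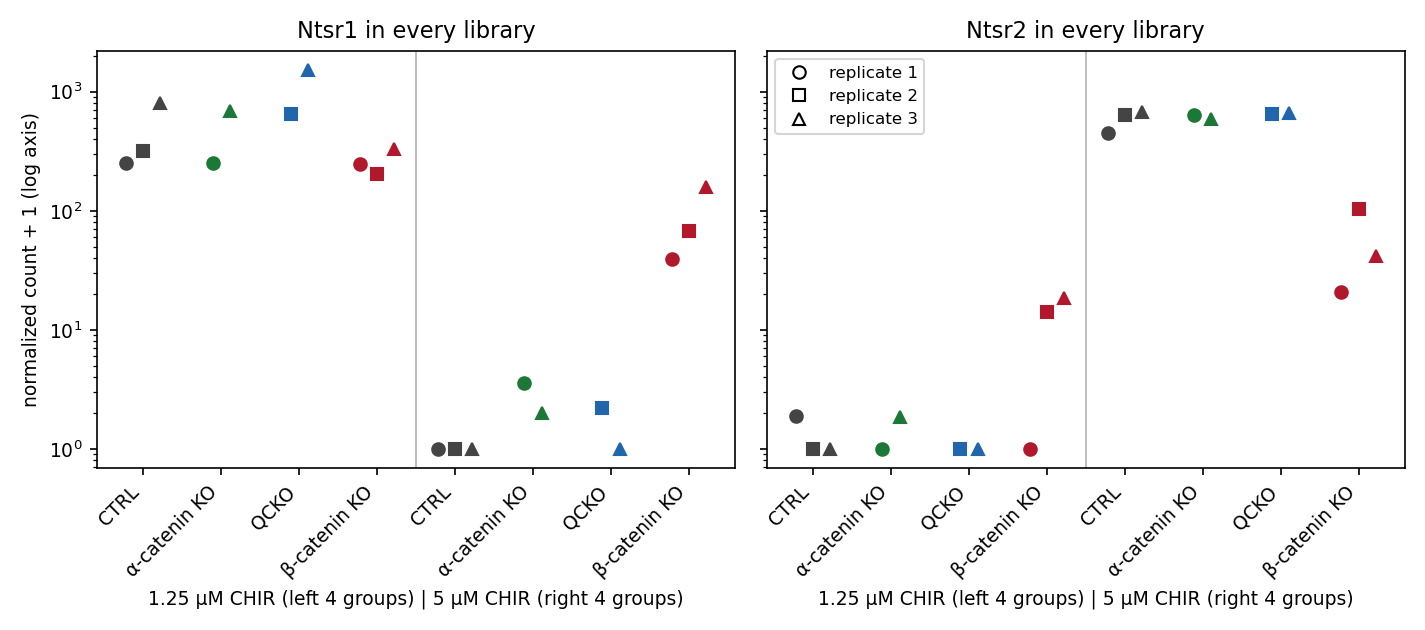
Normalized count plus 1 (log axis) of Ntsr1 (left panel) and Ntsr2 (right panel) in each of the 20 libraries, 1 point per library, by knockout and CHIR concentration, with the marker shape giving the replicate number. Outside β-catenin KO, Ntsr1 lies at 249.9 to 1530 in low CHIR and at 0 to 2.58 in high CHIR, Ntsr2 lies at 0 to 0.893 and at 453.6 to 675.5, and the β-catenin KO libraries in high CHIR lie between these levels for both genes.

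On the log2(normalized count + 1) scale, which understates changes of genes near 0, the difference between high and low CHIR in CTRL was -8.65 for Ntsr1 and 8.88 for Ntsr2. By absolute size these ranked 3rd and 1st of 16516 genes. Across all genes 9.63% were called in this contrast (limma, adjusted p under 0.05 and absolute log2 fold change over 0.5), and nothing is read from this for the receptors, which were chosen on it. The differences were -7.28 and 8.83 in α-catenin KO, where 3.98% of all genes were called, and -9.39 and 9.36 in QCKO, where 4.7% were called. In β-catenin KO they were -1.77 and 2.80. The Ntsr2 value there was 1.47 when β-catenin KO replicate 1 in low CHIR was left out and 3.58 when replicate 3 in low CHIR was, and the Ntsr1 value ran from -2.32 to -1.31 with single libraries left out.

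The β-catenin KO libraries in high CHIR held RNA of both receptors at intermediate levels. Whether the same cells held both cannot be told from bulk samples. Ntsr1 was 38.1, 66.5 and 158 in replicates 1, 2 and 3 (87.5 ± 62.6, SD, n = 3), from 33, 60 and 182 reads, whereas the α-catenin KO and QCKO libraries together held 4 reads. The groups did not overlap. Against the mean of the α-catenin KO and QCKO groups, a comparison that uses no CTRL library, the log2 difference was 5.23 (SE 0.53, 95% interval 4.10 to 6.36, limma, adjusted p = 6.3e-05), where 5.39% of all genes were called and 3.82% were called as higher in β-catenin KO. The ratio of read rates was 86.3 with a 95% exact counting interval of 33.3 to 319, and it was 48.2 without β-catenin KO replicate 3 and 136 without α-catenin KO replicate 1. Against CTRL, whose libraries all had 0 reads, Ntsr1 was at least 90.2-fold higher (54.0-fold without β-catenin KO replicate 3 and 53.0-fold without CTRL replicate 3), and the log2 difference was 6.23 (SE 0.57, 95% interval 5.02 to 7.43, limma, adjusted p = 3.1e-05), where 8.84% of all genes were called and 6.61% were called as higher. The CTRL libraries in this comparison also belong to the contrast that chose the receptors, and with 0 reads there β-catenin KO could not be lower. The α-catenin KO and QCKO libraries also entered the choice, which covered all 20 libraries, and with 4 reads in all β-catenin KO could hardly be lower. The p-values of both comparisons thus draw on values used in the choice. Six2 and the other self-renewal genes of the list were higher in the same β-catenin KO libraries, with 7 of 7 called against α-catenin KO and QCKO, and the 6 nephron progenitor markers summed to 6931 to 13039 there and to 1118 to 2215 in the 7 other high CHIR libraries. Markers of other cell types also differed. Of 9 such genes tested against α-catenin KO and QCKO (limma), Tcf21 was called as higher in β-catenin KO at 1.51 (adjusted p = 0.023), and Tek at -3.02 (adjusted p = 0.034) and Hoxb7 at -0.94 (adjusted p = 0.041) as lower. Meis1, the other stroma marker with an identifier, went the other way from Tcf21, at -0.47, and was not called (limma, adjusted p = 0.31). The mean of Tcf21 in high CHIR was 1695 in β-catenin KO and 559 to 696 in the other groups, and that of Meis1 was 742 and 898 to 1021. The stroma sum thus joins opposite directions. Summed counts in the β-catenin KO and the other high CHIR libraries were 2210 to 2780 and 1166 to 2024 for stroma, 537 to 1027 and 841 to 1988 for ureteric epithelium, and 832 to 918 and 763 to 1157 for neuron. Tek was 4.62 to 85.3 and 89.7 to 383 there and 0 to 7.64 in low CHIR without β-catenin KO, and Laptm5 was 4.43 to 28.9 and 0 to 39.9. The part of any of these cells in the receptor levels and in the gene lists that follow was not tested.

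Ntsr2 in β-catenin KO cells in high CHIR was 19.6, 102 and 40.8 in replicates 1, 2 and 3 (54.1 ± 42.8, SD, n = 3). Every one of these values lay below the lowest of the other high CHIR libraries, 453.6. The mean was 8.49% of the mean over α-catenin KO and QCKO, with a log2 difference of -3.84 (SE 0.78, 95% interval -5.50 to -2.18, limma, adjusted p = 0.0096), where 1.57% of all genes were called as lower. It was 9.20% of the CTRL mean, with a log2 difference of -3.70 (SE 0.83, 95% interval -5.48 to -1.93, limma, adjusted p = 0.015), where 2.22% of all genes were called as lower. The CTRL, α-catenin KO and QCKO values in these comparisons are part of the CHIR differences on which Ntsr2 was chosen. Neither p-value stands free of that choice. Without β-catenin KO replicate 2, which held the most Ntsr2, the β-catenin KO mean was 30.2. When replicate 1 of β-catenin KO in high CHIR was left out, the library with the least Ntsr2 and the least Wnt4, the difference was -3.15 from CTRL (limma, adjusted p = 0.065) and -3.28 from α-catenin KO and QCKO (limma, adjusted p = 0.058), so neither passed. With a pseudocount of 0.25 the limma adjusted p was 0.072 against CTRL and 0.069 against α-catenin KO and QCKO. Within dates, β-catenin KO held 4.33%, 16.0% and 6.04% of the Ntsr2 of CTRL for replicates 1, 2 and 3. Ntsr2 and Wnt4 were both lowest in replicate 1 and highest in replicate 2 of these 3 libraries, while Lef1, at 93.6, 677 and 1020 in replicates 1, 2 and 3, was highest in replicate 3.

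**Figure D2:**
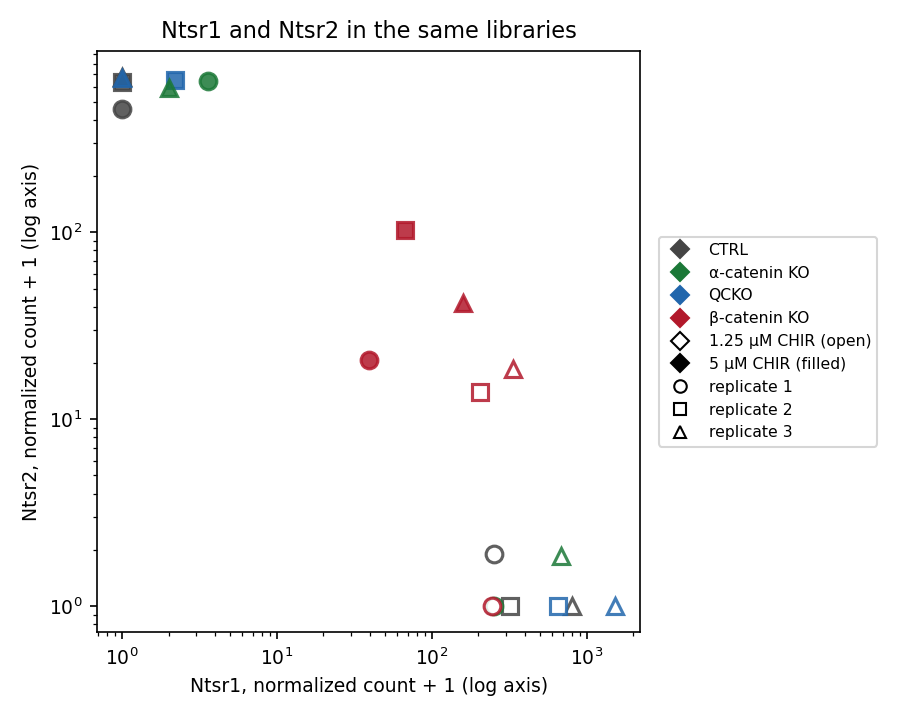
Ntsr2 against Ntsr1 in the same 20 libraries, both as normalized count plus 1 on log axes, coloured by knockout, with open markers for low CHIR, filled markers for high CHIR and marker shapes for the replicate number. The 7 high CHIR libraries without β-catenin KO lie at the upper left (Ntsr1 0 to 2.58) and their 7 low CHIR counterparts at the lower right (Ntsr2 0 to 0.893), while 5 of the 6 β-catenin KO libraries hold reads of both genes well above these floors.

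The CHIR response of the β-catenin KO cells was smaller in size than in the other groups and kept its direction, and the difference in response between groups was not tested. For Ntsr1, the high CHIR library had 15.6%, 32.6% and 47.5% of the low CHIR library of the same date in replicates 1, 2 and 3, and the means differed 2.98-fold. For Ntsr2 it had 7.85-fold the low CHIR count in replicate 2 and 2.31-fold in replicate 3, and in replicate 1 there were 0 reads in low CHIR and 17 in high CHIR. The high and low CHIR libraries of β-catenin KO did not overlap for either gene. Across all genes 0.012% were called in this contrast. Ranked by absolute log2 difference, Ntsr2 stood 17th and Ntsr1 109th of 16691 genes.

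In low CHIR, β-catenin KO cells held Ntsr1 at 245, 204 and 332 (260 ± 65.6, SD, n = 3). This range overlapped that of CTRL, and the log2 difference was -0.65 (SE 0.57, 95% interval -1.86 to 0.56, limma, adjusted p = 0.95), where 0.0659% of all genes were called. Against α-catenin KO and QCKO, at a mean of 33.5% of theirs, it was -1.33 (SE 0.53, 95% interval -2.46 to -0.20, limma, adjusted p = 0.42), where 0.132% of all genes were called. Neither difference passed the threshold. With single libraries left out the difference from CTRL ran from -0.99 to -0.15, the latter without CTRL replicate 3, and that from α-catenin KO and QCKO from -1.69 to -0.97. Within dates β-catenin KO had 98.0%, 63.8% and 41.3% of the Ntsr1 of CTRL.

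Ntsr2 in low CHIR was highest in 2 of the 3 β-catenin KO libraries. It was 0, 13.0 and 17.6 (0, 13 and 22 reads) in replicates 1, 2 and 3, while the 7 other low CHIR libraries held 2 reads in all. The replicates with reads are the ones with high Wnt4 and Lef1. Over the 3 libraries the log2 difference was 2.37 from CTRL (SE 0.83, limma, adjusted p = 0.61) and 2.45 from α-catenin KO and QCKO (SE 0.78, limma, adjusted p = 0.30), and neither passed. Ntsr2 passed the filter on mean counts through its high CHIR libraries, and over only the low CHIR libraries compared its mean was under the filter. With β-catenin KO replicate 1 left out the differences were 3.71 (limma, adjusted p = 0.020) and 3.79 (limma, adjusted p = 0.0088). That replicate is the one with 0 reads, so leaving it out selects on the outcome and supports nothing. With it as the only β-catenin KO library they were -0.31 (limma, adjusted p = 0.91) and -0.22 (limma, adjusted p = 0.93), where the lone library is assumed to vary like the other groups. On the recovered reads edgeR called neither, at 4.56 (adjusted p = 0.26) and 5.37 (adjusted p = 0.073), and DESeq2 called both, at 4.85 (adjusted p = 0.030) and 5.29 (adjusted p = 0.0012).

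No difference of α-catenin KO or QCKO from CTRL passed the test for either receptor where it was present. For Ntsr2 in high CHIR the log2 difference from CTRL was 0.09 in α-catenin KO (95% interval -0.65 to 0.83, limma, adjusted p = 0.95) and 0.18 in QCKO (95% interval -0.56 to 0.92, limma, adjusted p = 0.85). No gene was called in either comparison with limma (0% in each), while an unadjusted p under 0.05 was found for 841 genes with α-catenin KO and for 1265 with QCKO. edgeR also called 0 in each, and DESeq2 called 4 genes for α-catenin KO and 7 for QCKO, and Ntsr2 was not among them. For Ntsr1 in low CHIR the log2 difference was 0.05 in α-catenin KO (95% interval -1.28 to 1.37, limma, adjusted p = 1.0), where 0% of genes were called, 182 had an unadjusted p under 0.05, edgeR called 0 and DESeq2 called 1. This sign turned when CTRL replicate 1, CTRL replicate 2 or α-catenin KO replicate 3 was left out, with differences of -0.29, -0.11 and -0.67. In QCKO it was 1.31 (SE 0.60, 95% interval -0.01 to 2.64, limma, adjusted p = 1.0), where 0.00605% of genes were called. With single libraries left out it ran from 0.70, without QCKO replicate 3, to 1.93, without QCKO replicate 2, and it did not pass in any of these fits. Both QCKO libraries held more Ntsr1 than the CTRL library of the same date, 2.03-fold in replicate 2 and 1.90-fold in replicate 3, and α-catenin KO held 1.01-fold and 0.847-fold in replicates 1 and 3. QCKO replicate 2, at 649.8, lay below CTRL replicate 3, at 804, so the groups overlapped.

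The date in the titles accompanied much of the spread of Ntsr1. In low CHIR the 3 libraries of replicate 1 lay between 245 and 252, those of replicate 2 between 204 and 649.8, and the 4 of replicate 3 between 332 and 1530. In each of the groups the replicate 3 library was the highest. For Ntsr2 in high CHIR, CTRL was lowest in replicate 1 at 453.6 while α-catenin KO was highest there at 641, so the dates had no common order.

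**Figure D3:**
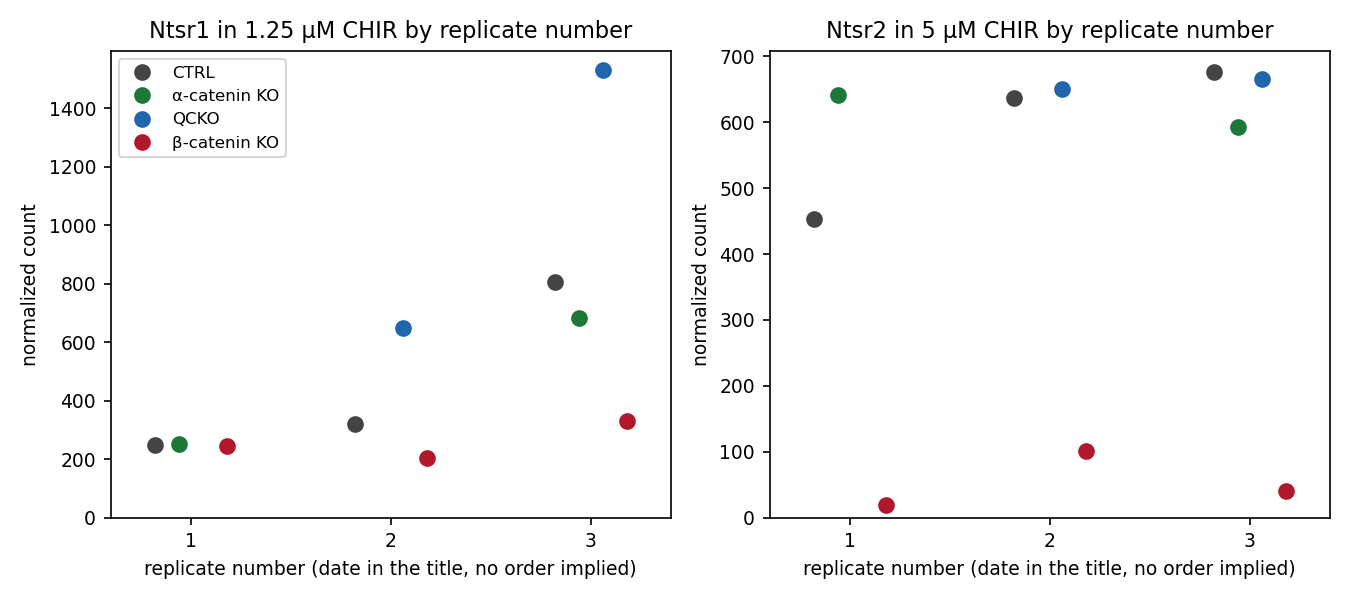
Normalized counts by replicate number, which stands for the date in the titles and has no order, of Ntsr1 in low CHIR (left panel) and Ntsr2 in high CHIR (right panel), 1 point per library, coloured by knockout and set side by side within a date. In replicate 1 the 3 Ntsr1 values lie between 245 and 252, in replicates 2 and 3 QCKO lies highest, and for Ntsr2 the β-catenin KO points (19.6 to 102) lie below all others (453.6 to 675.5).

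**Figure D4:**
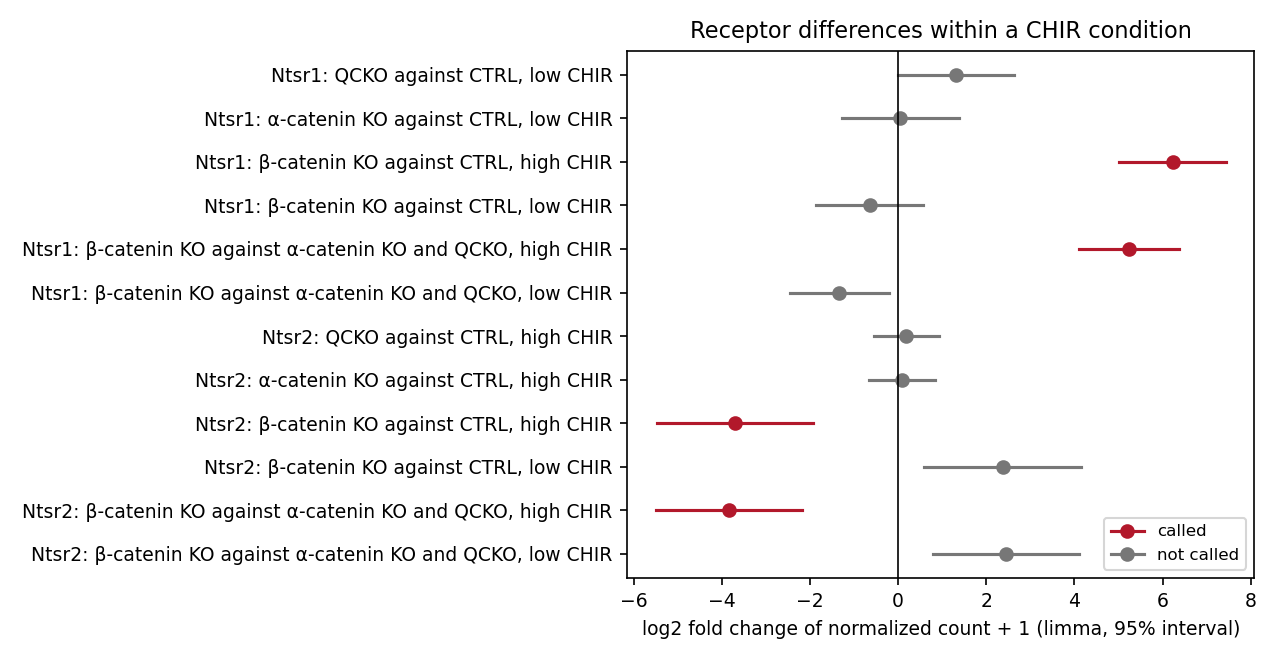
Log2 fold change of normalized count plus 1 with its 95% interval (limma) for each receptor in each comparison within a CHIR condition where at least 1 group held the gene above 3 reads in a library, red where called and grey where not. The 4 called differences are those of β-catenin KO in high CHIR, positive for Ntsr1 (5.23 and 6.23) and negative for Ntsr2 (-3.84 and -3.70).

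The genes most like each receptor were sought by Pearson correlation of log2(normalized count + 1) over the 20 libraries, which share CHIR conditions and dates, among 16690 genes with a mean of at least 10. For Ntsr1 they were Bcl2, an inhibitor of apoptosis (r = 0.98), Bbx, an HMG-box protein (0.98), Tcap, a sarcomere protein that caps titin (0.97), Ankrd6, a Wnt pathway regulator also called diversin (0.97), and Sulf2, a sulfatase that edits heparan sulfate outside the cell (0.97). For Ntsr2 they were Rnase12, of the ribonuclease A family (r = 0.98), Wnt4 (0.98), Lhfpl2, a membrane protein (0.97), Scube3, a secreted protein with EGF repeats (0.97), and the predicted gene Gm50405 (0.97). No gene without a symbol ranked above the fifth in either list. The likeness is mainly one of CHIR response. In the libraries without β-catenin KO, Bcl2 was 3066 to 4158 in low CHIR and 147 to 256 in high CHIR, and in β-catenin KO in high CHIR it was 1064 to 1844. Rnase12 was 24.9 to 65.6 and 1946 to 3831 in the same 2 sets of 7 libraries and 113 to 631 in β-catenin KO in high CHIR. Tcap was the nearest of the Ntsr1 group to an on and off pattern, at 33.6 to 86.8 in low CHIR and 0 to 2.58 in high CHIR, and Gm50405 was the nearest of the Ntsr2 group, at 0.860 to 5.94 and 431 to 1130. The r between the receptors themselves was -0.93, a description of libraries that fall into clusters.

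Of the neurotensin system list, 6 of 14 genes have an identifier, and symbols are known only for genes that appear in one of the comparison tables, so the ligand, sortilin and the others are not analysed here. Beside the receptors these were Sorl1, Mme, Ece1 (an endothelin-converting peptidase) and Ace (angiotensin-converting enzyme), the last with a mean of 3.22, under the filter. The comparison tables carry cut-offs on p-value and fold change in their titles, and they include low against high CHIR in CTRL. The genes of this list and of those below were thus picked in part on these same data. Shares and medians over all genes are therefore not a like background for them. In high CHIR, 1 of the 3 tested was called between β-catenin KO and the α-catenin KO and QCKO groups, where 5.39% of all genes were called. This was Mme. In low CHIR it was 223 to 1199 in β-catenin KO and 109 to 269 in the other libraries. In high CHIR it was 116 to 488 in β-catenin KO and 10.9 to 34.3 in the others (log2 difference 3.65, SE 0.55, limma, adjusted p = 0.0015). Ece1 had a difference of 0.57 (limma, adjusted p = 0.24) and Sorl1 of -1.62 (limma, adjusted p = 0.14). Against CTRL, Mme at 3.32 (limma, adjusted p = 0.0041) and Ece1 at 1.17 (limma, adjusted p = 0.018) were called, where 8.84% of all genes were. Sorl1, the non-G protein-coupled receptor of the group, was 34.8 to 162 in low CHIR and 280 to 593 in high CHIR without β-catenin KO. In low CHIR 0 of the 3 were called in β-catenin KO by limma, edgeR or DESeq2, with the same shares of 0.0659% and 0.132% of all genes called by limma, and 1 had an unadjusted p under 0.05 in limma, against α-catenin KO and QCKO.

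The Gq list covers what lies below Ntsr1, and 9 of 21 genes have an identifier. These 9 were listed in the authors' comparisons of these data, so nothing is read from their shares or medians against all genes. Against α-catenin KO and QCKO in high CHIR, 4 of 9 were called as higher in β-catenin KO and none as lower, where 3.82% of all genes were called as higher, with a median log2 difference of 0.89 against 0.0027 over all genes. They were Rgs4 (4.43, limma, adjusted p = 0.00068) and Rgs2 (2.94, limma, adjusted p = 0.0080), which shorten Gq signals by speeding GTP hydrolysis, the protein kinase C gene Prkca (1.51, limma, adjusted p = 0.018) and the calcium channel gene Itpr1 (1.35, limma, adjusted p = 0.015). In low CHIR, Rgs4 was 550 to 940 in the β-catenin KO libraries and 172 to 648 in the others. In high CHIR it was 641 to 1111 in the β-catenin KO libraries and 12.1 to 105 in the others. The phospholipase C genes Plcb3 (0.10) and Plcb4 (0.89), the other inositol trisphosphate receptor genes Itpr2 (0.55) and Itpr3 (0.06), and the arrestin gene Arrb1 (0.34) were not called. Against CTRL 7 of 9 were called as higher, where 6.61% of all genes were, with a median of 1.17, and the same limit on such shares holds. In low CHIR 0 of 9 were called in β-catenin KO by limma, edgeR or DESeq2 against either set, where limma called 0.0659% of all genes against CTRL and 0.132% against α-catenin KO and QCKO, and 1 had an unadjusted p under 0.05 in limma, against α-catenin KO and QCKO.

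Of 54 other peptide receptors, 5 have an identifier, all with a mean of at least 10. They too were listed in the authors' comparisons, so the limit on shares over all genes holds for them. In high CHIR 1 of the 5 was called against α-catenin KO and QCKO, as higher, where 3.82% of all genes were. This was Tacr1, the substance P receptor, which was 47.4 to 166 in β-catenin KO and 10.7 to 44.7 in the other high CHIR libraries (log2 difference 1.99, SE 0.53, limma, adjusted p = 0.041). Tacr1 without β-catenin KO was 245 to 493 in low CHIR, so like Ntsr1 it was higher there, but in high CHIR it kept reads in every library. Against CTRL its difference was 1.84 (limma, adjusted p = 0.055), which did not pass. The prokineticin receptor gene Prokr1 had a difference of -1.25 from α-catenin KO and QCKO (limma, adjusted p = 0.055). The somatostatin receptor gene Sstr2 (0.30), the cholecystokinin receptor gene Cckbr (-2.68) and the melanocortin receptor gene Mc1r (0.26) were not called either. In low CHIR 0 of 5 were called in β-catenin KO by limma, edgeR or DESeq2, against 0.0659% of all genes from CTRL and 0.132% from α-catenin KO and QCKO in limma, and 1 had an unadjusted p under 0.05 in limma against either set.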

How the data were processed

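Polyadenylated RNA of sorted NPCs was sequenced as paired-end reads by the authors. The submitters' processing notes name bcl2fastq, STAR, Subread, featureCounts, Salmon and DESeq2 with GRCm38, mm10 and the human build GRCh38, without their roles. The signal values deposited by the authors are read counts divided by 1 size factor per library, and the other deposited columns used here are identifiers and symbols. The authors' fold changes and p-values were not used. All values (100%, tolerance 0.01) were whole multiples of a library's step, and the recovered reads served the count-based alternatives. This check is less telling where the size factor is near 1, as in replicate 2 of β-catenin KO in low CHIR and replicate 3 of α-catenin KO in high CHIR. A symbol is known for 4316 genes, each listed in one of the authors' comparisons of these data, which carry cut-offs on p-value and fold change in their titles.

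log2(normalized count + 1) of genes with a mean of at least 10 was fitted in R 4.3.3 with limma 3.58.1, without a mean-variance trend, 1 mean per group, over all 20 libraries (comparisons of β-catenin KO) or the 14 without β-catenin KO (the rest), with Benjamini-Hochberg adjustment over all genes fitted. Called genes have an adjusted p under 0.05 together with a log2 fold change over 0.5 in either direction. Alternatives were no filter, pseudocounts of 0.25 and 5, quantile normalization, only the groups compared, edgeR 4.0.16 and DESeq2 1.42.0 on recovered reads, that date (replicate number) as a block, a log2 fold change over 1 and leaving out each library. A limma fit with a mean-variance trend, and low CHIR comparisons with replicate 1 as the only β-catenin KO library, were added after seeing the data. The scripts were tested on simulated data with 200 genes changed in β-catenin KO in high CHIR. At a log2 change of 1, limma recovered 22, edgeR 58 and DESeq2 108, with 2, 4 and 29 false calls. At a change of 2 they recovered 182, 182 and 191, with 12, 10 and 52 false calls. A difference near 1 that limma did not call may thus have been missed. Same-numbered libraries share a date in their titles, which the labels do not explain. Across genes their deviations from group means correlated at 0.0199 to 0.721 (median 0.20, 58 pairs), against a median of -0.11 for 116 pairs of different dates. Named genes were the receptors, the 5 genes with a symbol most like each, the neurotensin system and Gq genes, other peptide receptors with a mean of at least 10, and Six2 and Wnt4. Others were named after their values were seen. The receptors, lists and tests were chosen with earlier results of these data known.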

Additional observations from a re-analysis of the deposited data

Results flagged for a closer look

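Relative to the CTRL library of the same replicate number, Ntsr1 in β-catenin KO was lower in 3 of 3 libraries in low CHIR and higher in 3 of 3 in high CHIR. The mean difference between these β-catenin KO effects, high minus low CHIR, was 6.88 on the log2(normalized count + 1) scale, and it was not tested. In high CHIR every CTRL library had 0 reads, a part of the contrast on which Ntsr1 was chosen, so β-catenin KO could not be lower there and the size depends on the pseudocount. In low CHIR, β-catenin KO had 98.0% of CTRL in replicate 1, and the low CHIR difference did not pass (limma, adjusted p = 0.95). Nothing is read from the opposite directions.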

How the results depend on the processing

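Of 194 alternative values of the 12 tested receptor differences, 179 kept their direction and side of the threshold, 4 no longer passed, 4 newly passed and 7 changed sign. The 8 described CHIR differences had 98 alternative values, all with the same sign, of which 74 moved by less than the spread between replicates. The difference of Ntsr1 in β-catenin KO from α-catenin KO and QCKO in high CHIR passed under every alternative run, from 3.70 to 6.52. These groups held 4 reads in all, and the difference was 6.12 with a pseudocount of 0.25 and 3.70 with 5, so its passing says little about stability. The difference of Ntsr1 in β-catenin KO from CTRL in high CHIR ran from 3.99 to 9.49, set mainly by the pseudocount or prior, since every CTRL library had 0 reads. Its passing says nothing about stability. Those of Ntsr2 in β-catenin KO in high CHIR did not pass with a pseudocount of 0.25, at -3.73 against CTRL and -3.87 against α-catenin KO and QCKO. Leaving out single libraries gave -4.31 to -3.15 and -4.44 to -3.28, and both lost the call when replicate 1 of β-catenin KO was left out. In the low CHIR comparisons, Ntsr2 passed the filter on mean counts only through its high CHIR libraries, so nothing is read from its calls there. In β-catenin KO it passed with DESeq2 at 4.85 against CTRL and 5.29 against α-catenin KO and QCKO. Leaving out single libraries gave 1.60 to 3.71 and 1.68 to 3.79, both passing only when replicate 1 of β-catenin KO was the one left out, and with that replicate alone the values were -0.31 and -0.22. The cause of these changes was not tested. The differences of α-catenin KO from CTRL were near 0 and changed sign, with -0.019 for Ntsr2 in high CHIR after quantile normalization, -0.088 to 0.198 when single libraries were left out, and -0.67 to 0.76 for Ntsr1 in low CHIR when single libraries were left out. The described CHIR differences depend on the pseudocount, since a group near 0 has no measured log2 level. For Ntsr1 and Ntsr2 with a pseudocount of 0.25 they were -10.65 and 10.45 in CTRL, -10.69 and 11.36 in QCKO, and 10.20 for Ntsr2 in α-catenin KO. With a pseudocount of 5 they were -6.34 and 6.79 in CTRL, -5.96 and 6.85 in α-catenin KO and -7.49 and 7.05 in QCKO. With edgeR they were -11.86 and 10.35 in CTRL, -10.69 and 12.38 in QCKO, and 10.13 for Ntsr2 in α-catenin KO. With DESeq2 they were -11.30 and 10.68 in CTRL, -10.99 and 11.94 in QCKO, and 10.49 for Ntsr2 in α-catenin KO. For Ntsr2 in QCKO quantile normalization gave 9.33 and leaving out single libraries 9.35 to 9.38, and in β-catenin KO low CHIR replicate 1 alone gave 5.48. With the date in the titles as a replicate block, Ntsr1 and Ntsr2 in β-catenin KO in high CHIR differed by 6.23 (limma, adjusted p = 1.3e-05) and -3.70 (limma, adjusted p = 0.0055) from CTRL and by 5.33 and -3.77 from α-catenin KO and QCKO, in low CHIR by -0.65 and 2.37 from CTRL and -1.23 and 2.52 from α-catenin KO and QCKO, and the block changed no call of the receptors. Over all genes the block raised the counts called in these 4 comparisons from 1475 to 2676, from 900 to 1678, from 11 to 48 and from 22 to 121. Fits of only the groups compared called 157, 263, 0 and 0, fits with no filter 722, 610, 5 and 8, and DESeq2 2515, 1537, 189 and 361. Leaving out single libraries called 732 (without β-catenin KO replicate 1) to 2586 (without CTRL replicate 1), 459 (without β-catenin KO replicate 1) to 831, 0 (as without CTRL replicate 2) to 35 (without β-catenin KO replicate 1), and 1 (without β-catenin KO replicate 2) to 83 (without β-catenin KO replicate 1). Ntsr1 in high CHIR and Ntsr2 in low CHIR had at most 3 reads in each library of CTRL, α-catenin KO and QCKO. Differences between these groups there would rest on those few reads and are not given.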
